A study of Mus musculus with 6 samples.

Results

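The cytosolic ribosomal protein genes were followed across 6 RNA libraries from the mouse liver's hepatic stellate cells, mesenchymal cells that store vitamin A. A gene was taken as a member by its symbol alone, which had to begin with Rps, Rpl or Rplp and continue with a number and at most a short letter suffix. Rps27a and the numbered pseudogene copies were left out. The family and the division of the libraries described below were chosen by the normalized counts of these same 6 libraries, so that division is given as a description. The rule gave 78 of the 13341 genes in the table: 30 named for the small subunit, 45 for the large subunit and 3 for the stalk of the large subunit. RefSeq lists 76 of them as protein coding and 2, Rps4l and Rpl6l, as pseudogenes. The groups were 3 libraries labelled Nbr1 knock-out (KO1 to KO3, together Nbr1KO) and 3 labelled wild type (WT1 to WT3, together WT). Nbr1 encodes a cargo receptor of selective autophagy. Cells of both groups were untreated and grown for 4 days with 10% fetal bovine serum. The design text calls the replicates biological. The sources used here give neither the animals or line behind them nor how the knock-out was made, so p-values measure the spread between these libraries.

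Each cytosolic ribosome holds 1 copy of nearly every ribosomal protein, in a small subunit that reads the messenger RNA and a large subunit that joins amino acids. The messenger RNAs of these proteins are among the most abundant in dividing cells. In mammals most of them begin with a terminal oligopyrimidine tract, a run of C and T at the first bases, through which mTORC1 and the RNA-binding protein LARP1 set their translation together. The family is therefore often treated as 1 block in expression data.

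Libraries held 2143285, 2276529 and 1648800 reads in KO1 to KO3, against 1508518, 2383879 and 2177342 in WT1 to WT3. Messenger RNA was read from the 3' end, so a value does not grow with transcript length. Values below are normalized counts, meaning reads divided by 1 factor per library. In such bulk samples fewer cells of a type and less RNA per cell cannot be told apart. Nbr1 itself stood at 204, 188 and 176 in KO1 to KO3, against 204, 278 and 289 in WT1 to WT3 (log2 change -0.43, SE 0.18, limma adjusted p = 0.220), and reads from the 3' end do not check a deletion placed elsewhere in the gene. Of 8 stellate cell markers 4 were measured (Pdgfrb, Col1a1, Acta2 and Vim), and their summed level was 9447 to 10797 in Nbr1KO and 4429 to 5258 in WT. Des, Lrat, Reln and Hgf were not analysed here. Measured markers of hepatocytes (3 of 4) summed to 8.59 to 28.5 in Nbr1KO and 24.4 to 32.0 in WT. Those of macrophages (1 of 4) reached 4.30 to 5.93 in Nbr1KO and 4.20 to 10.7 in WT. Those of endothelium (1 of 4) reached 6.02 to 8.31 in Nbr1KO and 3.36 to 5.45 in WT, and those of cholangiocytes (2 of 3) 41.5 to 45.3 in Nbr1KO and 52.7 to 61.4 in WT. Their part in the results was not tested.

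The libraries did not divide by genotype in these genes. Over the 77 tested members, meaning those that reached 10 normalized counts in 3 or more libraries, KO1 and KO3 correlated at r = 0.994 on the log2 scale, and WT2 and WT3 at 0.997. KO2 reached 0.983 and 0.980 with WT2 and WT3, above its 0.962 and 0.935 with KO1 and KO3. WT1 reached 0.922 and 0.939 with KO1 and KO3, above its 0.861 and 0.847 with WT2 and WT3. These correlations are across genes, which are not independent replicates. Values below are therefore given by genotype where a test between the genotypes is described, and for KO1, KO3 and WT1 beside KO2, WT2 and WT3 where the libraries are compared. This second division was drawn from these same data and is no label of the study, so values along it are described without a test. KO1, KO3 and WT1 were also the libraries with the fewest reads, WT1 with the fewest and KO3 next. KO1 and WT3 lay close, at 2143285 and 2177342 reads. Depth and this division cannot be told apart here, and the part of depth was not tested.

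As a whole the family took nearly the same part of every library. The 78 genes held 7.19%, 7.08% and 7.29% of the reads in KO1 to KO3, against 7.22%, 7.76% and 7.70% in WT1 to WT3, or 7.19% ± 0.102 in Nbr1KO and 7.56% ± 0.297 in WT (SD, n = 3 each). The groups overlapped, since WT1 lay below KO3. Small-subunit genes summed to 61216, 61024 and 62893 normalized counts in KO1 to KO3, against 63435, 69616 and 68434 in WT1 to WT3. Large-subunit genes outside the stalk summed to 67673, 67461 and 68666 normalized counts in KO1 to KO3, against 70643, 75049 and 73117 in WT1 to WT3. The 3 stalk genes, Rplp0, Rplp1 and Rplp2, whose products recruit the elongation factors, summed to 10644, 10116 and 11044 in KO1 to KO3, against 11155, 10627 and 10626.5 in WT1 to WT3. For both subunits all 3 Nbr1KO sums of normalized counts lay below all 3 WT sums, while the stalk sums overlapped. As a share of the library's reads this separation was lost for the small subunit and nearly closed for the large one. Small-subunit genes then took 3.16%, 3.12% and 3.21% in KO1 to KO3, against 3.15%, 3.48% and 3.46% in WT1 to WT3, so that WT1 lay among the Nbr1KO libraries. Large-subunit genes took 3.49%, 3.45% and 3.51% in KO1 to KO3, against 3.51%, 3.75% and 3.70% in WT1 to WT3. KO3, at 3.5097%, lay barely below WT1, at 3.5101%.

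**Figure D1:**
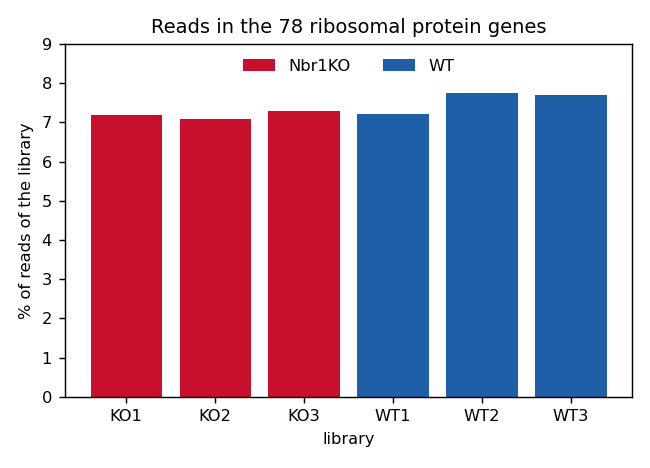
Percentage of all reads of a library (vertical axis, from 0) that fell in the 78 ribosomal protein genes, for 3 Nbr1KO libraries (red) and 3 WT libraries (blue). All bars lie between 7.08% and 7.76%, and WT1 stands beside the Nbr1KO libraries.

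Between the genotypes 1 of the 77 tested members was higher in Nbr1KO and 0 were lower (limma on log2(value + 1), Benjamini-Hochberg adjusted p under 0.05 over all tested genes). Over all 10540 tested genes 4.67% were called higher, 2.25% lower and 6.92% in either direction, against 1.30% of the members. At an unadjusted p under 0.05 there were 3 members higher and 4 lower, beside 1342 higher and 1037 lower of all 10540 tested genes. edgeR and DESeq2 on recovered reads each called 1 member higher and 0 lower. The median log2 change of the members was -0.07, beside -0.01 for all tested genes, with 27 members above 0 and 50 below. Over all tested genes 5159 lay above 0 and 5381 below, and no difference was tested. The quartiles of the members were -0.23 and 0.08. The median was -0.13 over 30 small-subunit genes, -0.06 over 44 large-subunit genes and 0.00 over the 3 stalk genes.

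The member that passed was Rps4l, a copy of the small-subunit gene Rps4x on chromosome 6 that RefSeq lists as a transcribed pseudogene. Rps4l had 215, 202 and 212 normalized counts in KO1 to KO3, against 36.0, 92.4 and 80.8 in WT1 to WT3. All 3 Nbr1KO libraries lay above all 3 WT libraries, with WT1 the lowest. Rps4l averaged 209.6 ± 6.72 in Nbr1KO and 69.7 ± 29.8 in WT (SD, n = 3 each), a 3.01-fold rise (log2 change 1.68, SE 0.35, limma adjusted p = 0.0359). Its log2 change was 2.53 among KO1, KO3 and WT1 and 1.22 among KO2, WT2 and WT3. The call was lost without KO1 (limma adjusted p = 0.161), KO2 (0.103), KO3 (0.145) or WT3 (0.0756). Its annotated transcript shared 17.5% of its end with 1 other gene, the copy Rps4l-ps, so the origin of its reads is uncertain. Its parent Rps4x, an X-linked gene of the small subunit, had 408, 529 and 409 normalized counts in KO1 to KO3, against 446, 759 and 826 in WT1 to WT3 and did not pass (log2 change -0.55, SE 0.26, limma adjusted p = 0.270). Rps4x was at its lowest in KO1, KO3 and WT1.

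None of the 76 protein-coding members passed limma. At an unadjusted p under 0.05 there were 6, beside 1342 higher and 1037 lower of all 10540 tested genes. edgeR and DESeq2 also called 0 of the 76. Their log2 changes ran from -1.12 to 0.74, and 68 lay within 0.5 of 0. Rpl3, whose product lies close to the peptidyl transferase centre, had 1363, 1323 and 1347 normalized counts in KO1 to KO3, against 1714, 1695 and 1639 in WT1 to WT3 (log2 change -0.32, SE 0.10, limma adjusted p = 0.122). Its groups did not overlap, with the Nbr1KO libraries lower. The lowest log2 change belonged to Rpl35, whose product lies at the mouth of the exit tunnel, with 87.8, 207 and 75.9 normalized counts in KO1 to KO3, against 256, 226 and 248 in WT1 to WT3 (log2 change -1.12, SE 0.37, limma adjusted p = 0.133). Here WT1 stood with the other WT libraries, and KO2 stood close to them. Rpl35 was chosen after its values were seen.

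In 12 tested members the 3 libraries of one genotype lay apart from the 3 of the other, 5 of them higher in Nbr1KO (6.49% of the members, against 16.5% of all tested genes) and 7 lower (9.09%, against 13.6%). The higher ones included Rps4l, Rps29, Rps7 and Rpl41. The lower ones were Rpl3, Rpl35, Rps25, Rpl18, Rpl4, Rpl36 and Rps9. Of the 12 Rps4l alone passed limma.

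**Figure D2:**
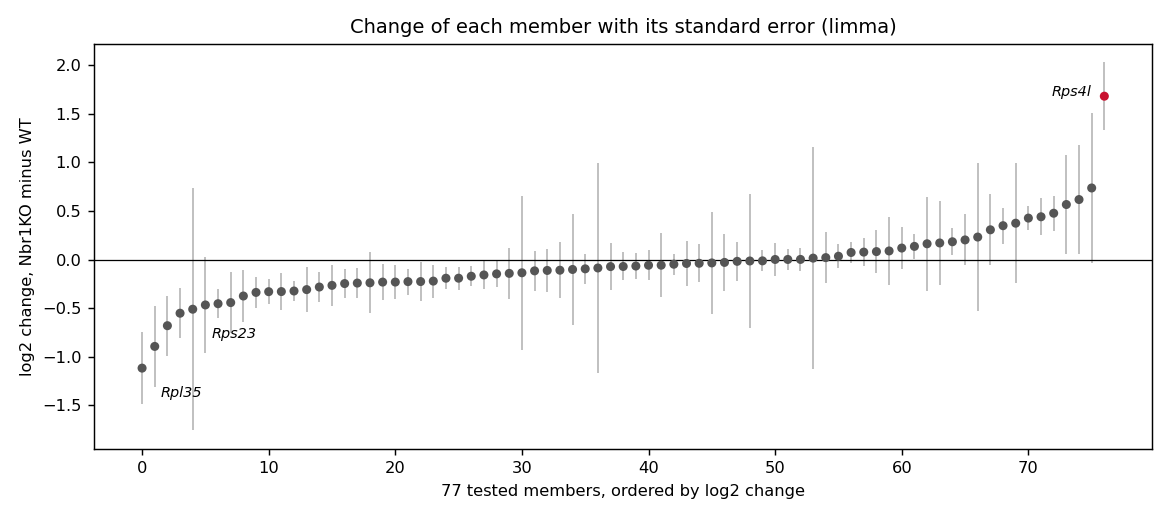
Log2 change, Nbr1KO minus WT (vertical axis), of the 77 tested members in ascending order (horizontal axis), with the standard error from limma as bars. Rps4l (red) passed an adjusted p under 0.05, and 68 of the 76 grey points lie within 0.5 of 0, several of them with wide bars.

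The count rested on WT1. Without that library 17 of the 77 tested members passed limma, or 22.1%, where 21.1% of all tested genes passed. By direction 2 of the 77 were higher, beside 12.1% of all tested genes, and 15 of the 77 lower, beside 9.02%. So members were more often lower and less often higher than all tested genes, which was not tested. The median log2 change was then -0.21. The members lower in that fit included Rpl34 (log2 change -0.62, limma adjusted p = 0.00863), Rps27 (-0.79, adjusted p = 0.0196) and Rps3 (-0.42, adjusted p = 0.0288). In that fit WT holds WT2 and WT3 alone, which both stand on 1 side of the division of the libraries.

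Within the members, the division of the libraries was wide in some genes and absent in others. In 35 of 77 members, or 45.5%, KO1, KO3 and WT1 all lay below KO2, WT2 and WT3, which held for 21.5% of all tested genes. In 12 members, or 15.6%, they all lay above, which held for 18.5% of all tested genes. The other 30 overlapped. Of the small-subunit genes 14 of 30 were low in KO1, KO3 and WT1 and 4 were high, and of the large-subunit genes outside the stalk 21 of 44 were low and 8 high. The stalk genes were in neither class. Between its highest and its lowest library a member varied 1.77-fold in the median, below the 2.04-fold of all tested genes (values of 0 left out). There were 10 members that varied over 4-fold, and 27 under 1.5-fold. Over the tested members, a library's log2 deviation from each member's mean went with the member's mean level. The Spearman correlations were 0.15, 0.44 and 0.51 in KO1, KO3 and WT1, against -0.64, -0.56 and -0.54 in KO2, WT2 and WT3. The part of level in the division was not tested.

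**Figure D3:**
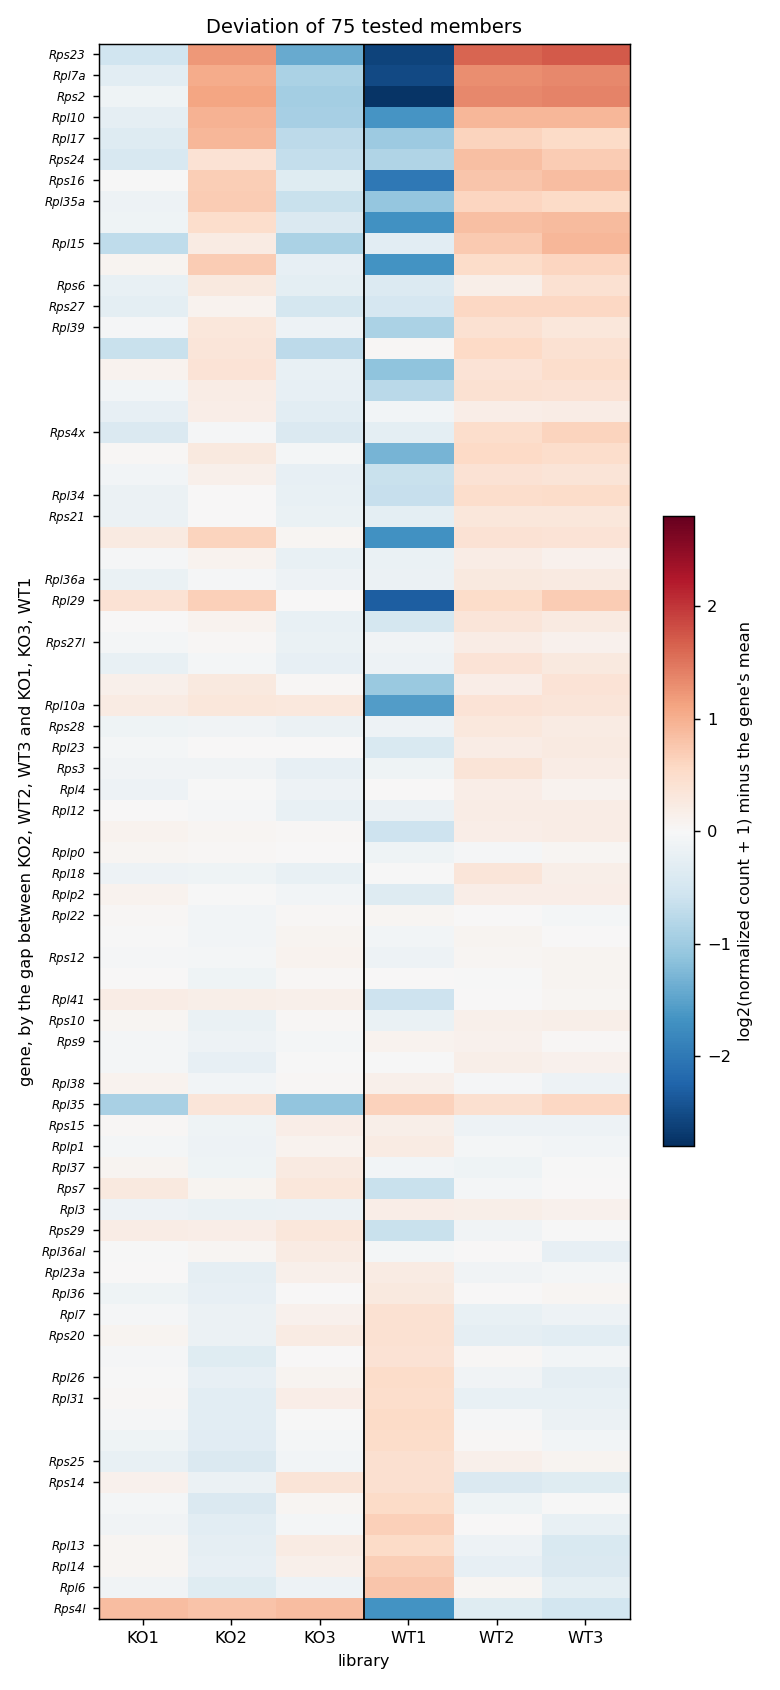
Deviation of 75 of the 77 tested members in log2(normalized count + 1), each from its own mean over 6 libraries (color), with Nbr1KO libraries left of the line, WT libraries right of it, genes named in the text labelled, and genes ordered by the gap between the lowest of KO2, WT2 and WT3 and the highest of KO1, KO3 and WT1. The upper rows are blue in KO1, KO3 and WT1 and red in KO2, WT2 and WT3, and the last row is Rps4l.

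The widest gap was in Rps23, whose product sits in the decoding centre of the small subunit. Rps23 had 199, 110.4 and 48.0 in KO1, KO3 and WT1, against 688, 924 and 979.7 in KO2, WT2 and WT3, and the lowest of the second 3 was 3.46-fold above the highest of the first. By genotype this was 333 ± 311 in Nbr1KO and 650.5 ± 522 in WT (SD, n = 3 each), a difference well within the spread (log2 change -0.51, SE 1.25, limma adjusted p = 0.860). Rpl7a, a large-subunit gene, had 421, 280.0 and 89.4 in KO1, KO3 and WT1, against 1071, 1274 and 1319 in KO2, WT2 and WT3. Rps2, which encodes a protein at the entry of the messenger RNA channel, had 950.5, 533 and 153 in KO1, KO3 and WT1, against 2216, 2624 and 2692 in KO2, WT2 and WT3. WT1 was the lowest library for each of these 3 genes, and KO3 lay below KO1.

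Members with smaller gaps had the same lowest library. Rpl10, whose product joins the large subunit late in its assembly, had 114, 71.2 and 42.7 in KO1, KO3 and WT1, against 266, 258 and 259.7 in KO2, WT2 and WT3. Rpl17, which encodes a protein of the exit tunnel, had 559, 435 and 358 in KO1, KO3 and WT1, against 1379, 1119 and 1039 in KO2, WT2 and WT3. Rps24, a gene mutated in some human patients with Diamond-Blackfan anaemia, had 1631, 1394 and 1238 in KO1, KO3 and WT1, against 2929.9, 3939.5 and 3609 in KO2, WT2 and WT3. In all 3 genes WT1 was lowest, and KO2 lay above WT2 and WT3 in Rpl10 and Rpl17 and below them in Rps24.

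Rps16, whose product reaches the tRNA of the P site, had 501, 399 and 124 in KO1, KO3 and WT1, against 804, 866 and 919 in KO2, WT2 and WT3. Rpl35a, another gene of human Diamond-Blackfan anaemia, had 285, 205 and 148 in KO1, KO3 and WT1, against 514, 479.5 and 455 in KO2, WT2 and WT3. Of the 35 members low in KO1, KO3 and WT1, WT1 was the lowest library in 24, KO3 in 9 and KO1 in 2. In 22 of them WT1 was below KO3 and KO3 below KO1.

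**Figure D4:**
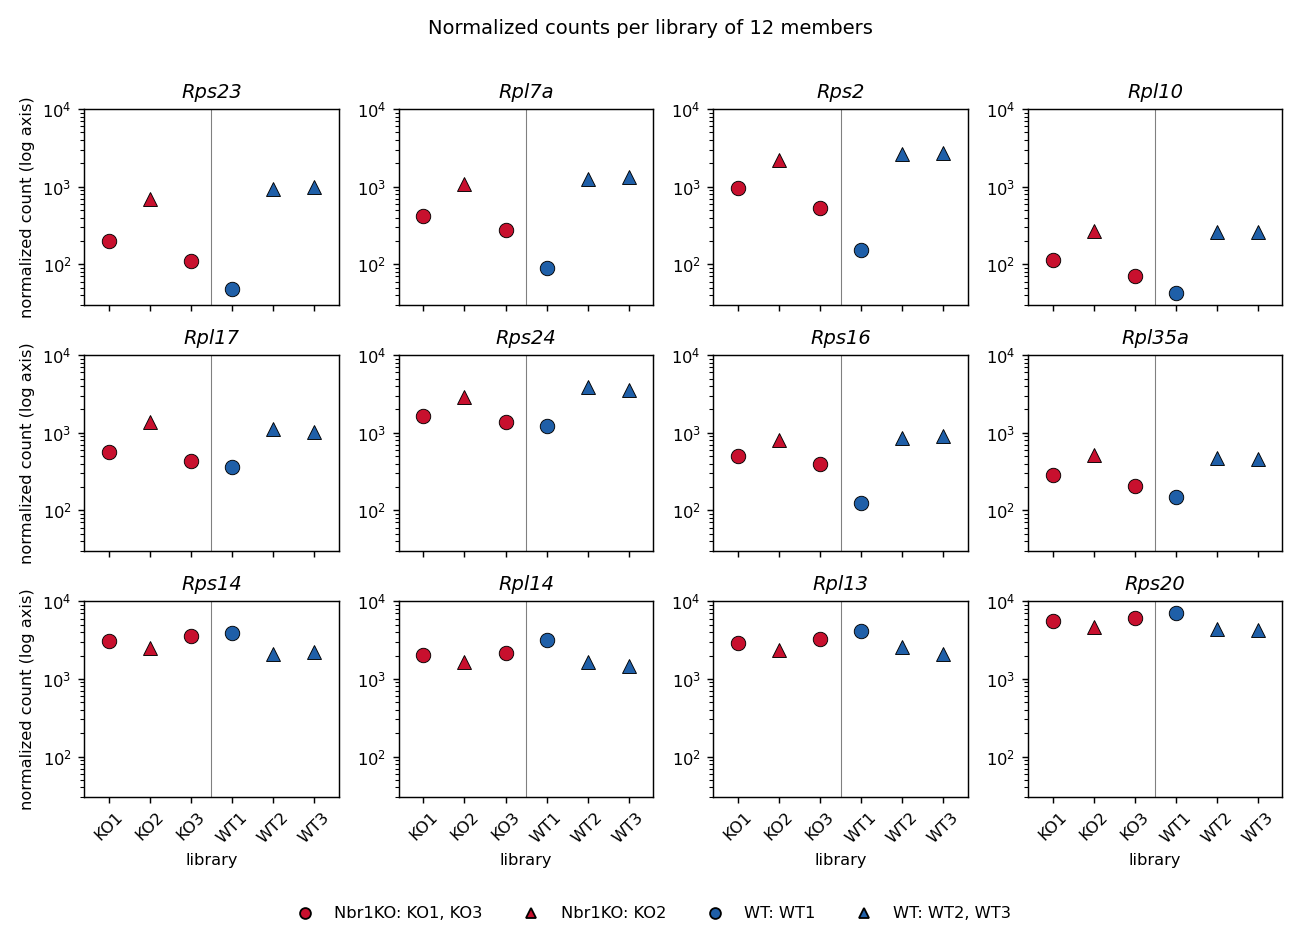
Normalized counts (vertical axis, log scale) of 12 members in each library, Nbr1KO (red) left of WT (blue), with KO1, KO3 and WT1 as circles and KO2, WT2 and WT3 as triangles. In the upper 8 genes every circle lies below every triangle, in Rps23 at 48.0 to 199 against 688 to 980, and in the lower 4 every circle lies above.

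The 12 members that went the other way moved less. They included Rpl7, Rpl13, Rpl14, Rpl22, Rpl23a, Rpl26, Rpl31, Rpl38, Rps14, Rps15 and Rps20. Rps14, the gene tied to the anaemia of human 5q- syndrome, had 3049.7, 3600.1 and 3864 in KO1, KO3 and WT1, against 2504, 2112 and 2212 in KO2, WT2 and WT3. Rpl14, a large-subunit gene, had 2049, 2162 and 3182 in KO1, KO3 and WT1, against 1669, 1674 and 1475 in KO2, WT2 and WT3. Rps20, which encodes a protein of the head of the small subunit, had 5544, 6157 and 7111 in KO1, KO3 and WT1, against 4676, 4426 and 4275 in KO2, WT2 and WT3. WT1 was the highest library in 11 of the 12.

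Rpl38, whose product is needed in the mouse for translation of Hox messenger RNAs, differed little, with 1786, 1698 and 1834 in KO1, KO3 and WT1, against 1589, 1622 and 1508 in KO2, WT2 and WT3. Rpl22, an RNA-binding protein gene of the large subunit, was the steadiest of all tested members, with 2198, 2204 and 2217 in KO1, KO3 and WT1, against 2027, 2142 and 2063 in KO2, WT2 and WT3. Its highest library stood 1.09-fold above its lowest. So a gap between these libraries in either direction can be a small one.

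At the edge between the classes stood Rps3, Rpl23, Rps28 and Rpl10a just inside and Rpl4 and Rpl12 just outside. Rps3, another gene of the messenger RNA entry channel, had 1529.8, 1413 and 1502 in KO1, KO3 and WT1, against 1534, 2108 and 1886 in KO2, WT2 and WT3. Rpl4, which encodes a protein of the exit tunnel, had 2406, 2428 and 2682 in KO1, KO3 and WT1, against 2658, 3019.9 and 2859 in KO2, WT2 and WT3. The highest of KO1, KO3 and WT1 and the lowest of KO2, WT2 and WT3 almost met in both genes.

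Levels spread widely over the family. Among tested members the mean over 6 libraries ran from 124 to 6455, with a median of 1579. The highest members were Rplp1, Rpl23a, Rps20, Rps12, Rpl37 and Rps21. Rplp1, of the stalk, had 6204, 5828 and 6867 normalized counts in KO1 to KO3, against 7501, 6238 and 6094 in WT1 to WT3. Rps12, a small-subunit gene, had 5264, 5119 and 5694 normalized counts in KO1 to KO3, against 4852, 5571 and 5656 in WT1 to WT3. The genotypes overlapped in both, and both varied under 1.5-fold over the libraries.

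The lowest tested members were Rpl10a, Rps4l, Rpl29, Rpl10 and Rps6. Rpl29 had 156, 187 and 119 normalized counts in KO1 to KO3, against 22.7, 167 and 191 in WT1 to WT3, with WT1 far below the other 5. Rpl10a, whose product forms the L1 stalk, had 133, 142 and 139 normalized counts in KO1 to KO3, against 37.4, 149 and 143 in WT1 to WT3, again with WT1 far below. Rps6, the substrate of the S6 kinases downstream of mTORC1, had 149, 211 and 142 normalized counts in KO1 to KO3, against 132, 195 and 234 in WT1 to WT3. Rpl6l, a pseudogene copy of Rpl6, stayed below the filter with 6.34, 3.44 and 1.19 normalized counts in KO1 to KO3, against 1.33, 0.840 and 1.82 in WT1 to WT3.

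Copies with a measured partner were set beside it. Rps27l, a paralog of Rps27 that is induced by p53, had 550.4, 586 and 501 normalized counts in KO1 to KO3, against 534, 663 and 620.1 in WT1 to WT3, while Rps27 had 778, 1006 and 669 normalized counts in KO1 to KO3, against 674, 1399 and 1398 in WT1 to WT3. Both lay lower in KO1, KO3 and WT1, Rps27 by the wider gap. Rpl36al had 278, 290.5 and 328 normalized counts in KO1 to KO3, against 269, 281 and 238 in WT1 to WT3, while Rpl36a had 1379.6, 1526 and 1420.4 normalized counts in KO1 to KO3, against 1406, 1892 and 1859 in WT1 to WT3. Rpl36a was low in KO1, KO3 and WT1, and the libraries overlapped for Rpl36al. Neither pair passed limma between the genotypes (adjusted p from 0.411 to 0.607). Rpl39, of the exit tunnel, had 1423, 1306 and 787 in KO1, KO3 and WT1, against 1793, 1938 and 1816 in KO2, WT2 and WT3. The copies Rpl3l, Rpl39l and Rpl10l were not analysed here.

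The change between genotypes depended on which libraries were set against each other. The mean of KO1 and KO3 minus WT1 gave a median log2 change of 0.07 over the members, with 42 above 0, and KO2 minus the mean of WT2 and WT3 gave -0.15, with 20 above 0. Over all 10540 tested genes these medians were 0.02 and -0.02, with 5377 and 5051 genes above 0. In 29 members the first was above 0 and the second below, in 7 the reverse, in 28 both were below 0 and in 13 both above. Each has 1 library on one side, so no p is given. Rps2 stood at 2.21 within KO1, KO3 and WT1 and at -0.26 within KO2, WT2 and WT3. For Rpl29 these were 2.53 and 0.07, and for Rpl7a 1.93 and -0.28. Rpl3, at -0.34 and -0.33, had nearly the same change in both.

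**Figure D5:**
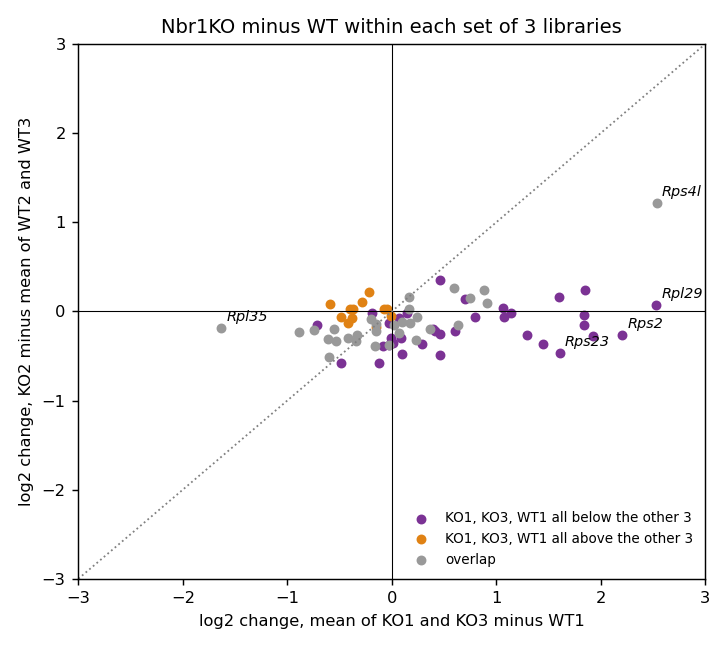
Log2 change of each tested member, mean of KO1 and KO3 minus WT1 (horizontal axis) and KO2 minus the mean of WT2 and WT3 (vertical axis), with the dotted line marking equal changes. Members low in KO1, KO3 and WT1 (purple) reach 2.53 on the horizontal axis while staying between -0.58 and 0.36 on the vertical one, and Rps4l stands apart at 2.53 and 1.22.

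The annotated transcripts were then searched for sequence that other genes carry, since ribosomal protein genes have left many processed copies in the mouse genome. How reads that match several copies were counted is not stated. For each of the 76 protein-coding members, windows of 50 bases from the last 300 bases of the transcript were looked up in all other genes of GENCODE M21 (mouse build GRCm38). In 40 members at least 50% of these windows occurred in another gene. Of these 40 members 21 were low in KO1, KO3 and WT1, 6 high and 13 neither. In 21 members no window was shared, and 6 of those were low, 4 high and 11 neither. The remaining 15 held 8 low, 2 high and 5 neither. A variation over 4-fold between libraries was seen in 7 of the 40, in 2 of the 15 and in 0 of the 21.

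Genes sharing sequence were most numerous in 6 members for which at least 30 other genes held 1 or more of the end windows, a limit chosen after the values were seen. These were Rpl7a (66 other genes), Rps16 (54), Rps2 (51), Rpl29 (41), Rpl23 (36) and Rpl17 (34), and all 6 were low in KO1, KO3 and WT1. A gene that shares a window need not be a copy of the member. Those for Rpl23, with 7.17% of its windows shared, included Abcd4 and Adam28. Those for Rps16, with 13.1%, included Abhd8 and Acer1. Reads of the 6 members are uncertain. Rps23, with the widest gap, shared 12.4% of its windows with 1 other gene. Rps24 shared none in the transcript taken, which ran 1176 bases past its coding sequence, and its other transcripts were not searched. Both were named for their wide gaps and were low in KO1, KO3 and WT1. Of the 21 members without a shared window, 6 were low there, 4 high and 11 neither. The mean level had a median of 1357 normalized counts in the 40 members and 2164 in the 21. The part of shared sequence in these values was not tested.

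The start sites were examined because the family is known for its pyrimidine tract there. RefSeq promoters (build GRCm38.p6) were found for 57 of the 78 members, in 68 entries. The letters CTTTC were searched in the 15 bases on each side of the annotated start. They occurred on the sense strand in 16 of the 68 entries, or 23.5%, and in 4.05% of all 32851 promoter entries, and on the other strand in 2 of the 68 and in 1182 of all entries. They were found in 5 of 28 members low in KO1, KO3 and WT1, in 2 of 7 that were high there and in 9 of 22 that were neither. The windows of 6 members, shown from each class with the letters CTTTC in capitals, were as follows, each 5′ to 3′ with the annotated start at the 16th base.
Rpl7a, chr2:26910792-26910821, plus strand: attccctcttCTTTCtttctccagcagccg
Rpl35a, chr16:33056467-33056496, plus strand: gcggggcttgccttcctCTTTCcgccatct
Rpl15, chr14:18270972-18271001, minus strand: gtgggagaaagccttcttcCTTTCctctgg
Rplp2, chr7:141447636-141447665, plus strand: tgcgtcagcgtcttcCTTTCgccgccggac
Rps10, chr17:27635230-27635259, minus strand: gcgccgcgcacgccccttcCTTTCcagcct
Rpl38, chr11:114668565-114668594, plus strand: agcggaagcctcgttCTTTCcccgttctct
The first 3 belong to members low in KO1, KO3 and WT1, the next 2 to members in neither class and the last to a member that was high there. The letters occurred near the annotated start in members of each class, and their part in the division of the libraries was not tested. A match describes these letters and no more, and an annotated start can lie some bases from the one used in these cells.

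Of 9 ribosomal protein genes that the symbol rule left out, 1 was lower in Nbr1KO and 0 were higher, with 1 called by edgeR and 1 by DESeq2. Over all tested genes 2.25% were lower. The lower one was Rpl7l1, a relative of Rpl7 that acts in ribosome assembly, with 170.2, 232 and 185 normalized counts in KO1 to KO3, against 386, 308 and 319.6 in WT1 to WT3 (log2 change -0.79, SE 0.17, limma adjusted p = 0.0447). The call was lost when any 1 library other than WT1 was left out, and its adjusted p ran from 0.0110 to 0.212 over the alternatives. By library, 4 of the 9 were low in KO1, KO3 and WT1 (21.5% of all tested genes) and 3 high (18.5% of all tested genes). Rps3a1, of the small subunit, had 256, 189.9 and 135 in KO1, KO3 and WT1, against 581, 866 and 859 in KO2, WT2 and WT3. Rps27a, which encodes ubiquitin fused to a ribosomal protein, had 656, 581 and 227 in KO1, KO3 and WT1, against 1104, 1241 and 1315 in KO2, WT2 and WT3. Rpsa, of the small subunit, had 1626, 1604 and 1638 in KO1, KO3 and WT1, against 1461, 1419 and 1273 in KO2, WT2 and WT3, on the opposite side. The other 2 genes of the list named by rule were Fau (log2 change -0.25, limma adjusted p = 0.392) and Rps27rt (log2 change -0.70, limma adjusted p = 0.509).

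Among 36 translation initiation factors 0 passed limma in either direction, with 0 higher and 1 lower at an unadjusted p under 0.05 and 0 by edgeR or DESeq2. Over all 10540 tested genes 1342 were higher and 1037 (9.84%) lower at that p, and edgeR called 766 and DESeq2 951. By library 11 of the 36 (30.6%) were low in KO1, KO3 and WT1 and 13 (36.1%) high. Over all tested genes these shares were 21.5% and 18.5%, a difference that was not tested. Among 9 elongation and termination factors 0 passed limma, with 1 higher and 2 lower at an unadjusted p under 0.05, and edgeR and DESeq2 each called 1. Of these 9, 3 were low in KO1, KO3 and WT1, 2 were high and the rest overlapped. Eef1a1, the factor that brings aminoacyl-tRNA to the ribosome, had 2399.7, 1721 and 1137 in KO1, KO3 and WT1, against 3758, 4055 and 4146 in KO2, WT2 and WT3. Eef2, which moves the ribosome along the messenger RNA, had 5863, 6290.2 and 7477 in KO1, KO3 and WT1, against 4946, 5373 and 5192 in KO2, WT2 and WT3. The pair lay on opposite sides. Eef1a1 and Eef2 were picked after their values were seen. Of 8 other messenger RNAs known for a terminal oligopyrimidine tract 0 passed limma (0 higher and 2 lower at an unadjusted p under 0.05, 0 by edgeR, 2 by DESeq2), and 5 were low in KO1, KO3 and WT1 and 0 high. Among them Tpt1, which encodes the translationally controlled tumour protein, had 381, 354 and 184 in KO1, KO3 and WT1, against 714, 854 and 869 in KO2, WT2 and WT3.

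Of 58 ribosome biogenesis factors, the proteins that assemble ribosomes, 3 (5.17%) were lower in Nbr1KO and 0 higher, beside 2.25% of all tested genes lower and 4.67% higher. At an unadjusted p under 0.05 there were 0 higher and 10 lower (17.2%), beside 9.84% of all tested genes lower, and the list as a whole was not tested. The median log2 change was -0.26. Polr1a, the catalytic subunit of RNA polymerase I, had 75.1, 72.2 and 78.3 normalized counts in KO1 to KO3, against 179, 142 and 143 in WT1 to WT3 (log2 change -1.02, SE 0.17, limma adjusted p = 0.0151). Nop2, a methyltransferase of ribosomal RNA, had 75.1, 61.0 and 79.5 normalized counts in KO1 to KO3, against 175, 139 and 126 in WT1 to WT3 (log2 change -1.01, SE 0.20, limma adjusted p = 0.0292). The third was the helicase gene Ddx10 (log2 change -0.64, limma adjusted p = 0.0358). In these 3 genes WT1 stood with WT2 and WT3 and above them. Each of the 3 calls was lost when any 1 library other than WT1 was left out, and over the alternatives the adjusted p reached 0.0984, 0.131 and 0.201. By library 11 of the 58 (19.0%) were low in KO1, KO3 and WT1 and 8 (13.8%) high, both below the shares of all tested genes.

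Of 79 mitochondrial ribosomal protein genes, which encode the separate ribosome of mitochondria, 1 was higher and 1 lower in Nbr1KO. Over all tested genes 4.67% were higher and 2.25% lower. Mrpl54 had 393, 336 and 382 normalized counts in KO1 to KO3, against 225, 244 and 252 in WT1 to WT3 (limma adjusted p = 0.0417). Mrpl9 had 10.9, 11.2 and 14.2 normalized counts in KO1 to KO3, against 36.0, 36.1 and 30.9 in WT1 to WT3 (limma adjusted p = 0.0169). Both calls were lost when any 1 library other than WT1 was left out, with an adjusted p of up to 0.223 for Mrpl54 and 0.0990 for Mrpl9. By library 11 (13.9%) were low in KO1, KO3 and WT1 and 24 (30.4%) high, beside 21.5% and 18.5% of all tested genes, and no difference between these shares was tested. Of 14 regulators around MYC and mTORC1 0 passed limma, edgeR or DESeq2. At an unadjusted p under 0.05 there were 0 higher and 2 lower (14.3%), beside 9.84% of all tested genes lower. Myc, a driver of ribosomal gene transcription, had 3.62, 4.75 and 5.34 in KO1, KO3 and WT1, against 37.0, 30.2 and 19.1 in KO2, WT2 and WT3. Since 1 read was worth 0.905, 1.19 and 1.33 in KO1, KO3 and WT1, these Myc values rest on few reads. Larp1, the binder of the pyrimidine tract, had 181, 146 and 147 in KO1, KO3 and WT1, against 289.6, 286 and 288 in KO2, WT2 and WT3. Both lay lower in KO1, KO3 and WT1, as did 5 of the 14 (35.7%), while 2 (14.3%) were high. Myc and Larp1 were picked after their values were seen.

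Of 18 host genes of small nucleolar RNAs, which guide the modification of ribosomal RNA, 1 was higher and 1 lower. Among all tested genes the shares were 4.67% higher and 2.25% lower. Snhg18 had 251, 201 and 244 normalized counts in KO1 to KO3, against 50.7, 42.0 and 31.8 in WT1 to WT3 (limma adjusted p = 0.00160). Snhg11 had 1.81, 1.72 and 3.56 normalized counts in KO1 to KO3, against 34.7, 20.2 and 26.3 in WT1 to WT3 (limma adjusted p = 0.00506). Both calls held when any 1 library was left out. Of the 18 host genes 6 (33.3%) were low in KO1, KO3 and WT1, and 1 (5.56%) was high, beside 21.5% and 18.5% of all tested genes. Gas5, another gene with a pyrimidine tract at its start, had 1500.0, 1454 and 1552 normalized counts in KO1 to KO3, against 1939.9, 1658 and 1573 in WT1 to WT3, with all Nbr1KO libraries below WT (limma adjusted p = 0.428), and was chosen after its values were seen. The mitochondrially encoded ribosomal RNAs mt-Rnr1 and mt-Rnr2, the 2 genes of the list of mitochondrial transcripts that were measured, did not pass limma, edgeR or DESeq2, and both were lower at an unadjusted p under 0.05 (log2 change -0.45 and -0.45, limma adjusted p = 0.167 and 0.127).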

How the data were processed

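RNA was measured in 6 libraries made from 200 ng of RNA with a QuantSeq 3' kit and read as single ends of 75 nucleotides, per the labels' protocols. The authors deposited a normalized count signal, in which the reads of each gene are divided by 1 factor per library. DESeq2 (no version) and build GRCm39 come from the submitters' processing notes. The labels' protocols mention optional molecular identifiers. Their use, the aligner, the counter and the strand setting are not given in the sources used here. Dividing by the worth of 1 read gave whole reads for 100% of values in each library (tolerance 0.01), and each listed gene had at least 9 reads in all, so reads could be recovered. Intervals are not given, and the number of libraries limits the precision.

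The 10540 genes that reached 10 normalized counts in 3 or more libraries entered a two-sided limma 3.58.1 fit (R 4.3.3, mean-variance trend) of log2(value + 1), so changes of low genes are understated. Benjamini-Hochberg adjustment covered all tested genes, with a threshold of 0.05. edgeR 4.0.16 and DESeq2 1.42.0 on the reads, other scalings, filters and pseudocounts, the replicate block and leaving out each library were alternatives. On the same reads edgeR called 766 genes and DESeq2 951, against 729 for limma. The steps were tested on simulated data.

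Named members were all those past the threshold, the 6 highest and 6 lowest in mean, the 8 with the widest and 6 with the narrowest gap between KO1, KO3, WT1 and KO2, WT2, WT3, all that went the other way, and paralog pairs. Up to 3 genes with the smallest p were taken from each other list, and some were left out of the text. Members, lists and the division of the libraries were chosen with earlier results of these data known. Transcript ends came from GENCODE M21 (GRCm38) and promoters from RefSeq (GRCm38.p6), another build than that of the files. Values of some genes are not reported here.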

Additional observations from a re-analysis of the deposited data

How the results depend on the processing

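The count of 1 called member held in all alternatives of scaling, filter, pseudocount and test, among them edgeR and DESeq2, and it ran from 0 to 17 when 1 library was left out. It was 0 without KO1, KO3 or WT3 and 17 without WT1. Without KO2 it was 1, a different member, Rpl35. With the replicate block 1 member and 476 genes in all were called, against 729 without it. The labels state no pairing. Deviations of same-numbered libraries from their group means correlated at 0.446, 0.700 and -0.624, and WT1 correlated best with KO3, at 0.698. Deviations from a mean of 3 libraries are tied to each other, so these values cannot decide whether libraries were paired. A mean of at least 50 left 380 genes called of 6885 tested, and leaving out 1 library gave 200.0 to 2228. The median log2 change ran from -0.15 with DESeq2 to -0.04 with total-read scaling and was 0.0732 within KO1, KO3 and WT1 alone. When 1 library was left out it ran from -0.212 without WT1 to -0.0236 without WT2. No scaling moved the median of all genes by over 0.1. The 35 members low in KO1, KO3 and WT1 were 35 to 37 under every scaling and filter. Of 39 named and tested members, 24 turned sign in at least 1 alternative in which they were not called, and the cause was not tested. Depth limits Rpl6l, with 1 to 7 reads per library.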

Other observations

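The table also holds 10 rows of numbered pseudogene copies of members, which the symbol rule left out. None exceeded 66.7 normalized counts in any library, and 5 passed the filter on low values. By how the libraries divided, 6 of the 10 fell in the class of their gene of origin, 3 of them with the libraries overlapping for both. Of the 5 rows that were low or high, 3 were in that class, while Rps12-ps10 was high and Rps15a-ps4 low although the libraries overlapped for Rps12 and Rps15a. Rpl34-ps1 had 2.72, 2.37 and 1.33 in KO1, KO3 and WT1, against 18.0, 17.6 and 16.3 in KO2, WT2 and WT3, and its gene of origin Rpl34 had 1414, 1375 and 1013 in KO1, KO3 and WT1, against 1607, 2241 and 2264 in KO2, WT2 and WT3. Rpl14-ps1 had 51.6, 42.7 and 66.7 in KO1, KO3 and WT1, against 24.1, 31.1 and 24.5 in KO2, WT2 and WT3, on the opposite side, where Rpl14 also lay. In all, 3 rows were low in KO1, KO3 and WT1, 2 were high and 5 overlapped, on values close to the level of single reads in several rows. Between the genotypes Rpl14-ps1 and Rpl34-ps1 did not pass limma (log2 change 0.02 and -0.55, adjusted p = 0.989 and 0.811).

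Rpl5 and Rpl11 encode proteins that stabilize p53 when ribosome assembly is disturbed. Rpl5 had 729, 589.7 and 311 in KO1, KO3 and WT1, against 885, 891 and 962 in KO2, WT2 and WT3, with KO1, KO3 and WT1 all below the other 3. Rpl11 had 2564, 2449 and 1612 in KO1, KO3 and WT1, against 2474, 2743 and 2747 in KO2, WT2 and WT3, with WT1 far below the other 5. Neither passed limma between the genotypes (log2 change 0.17 and 0.12, adjusted p = 0.866 and 0.812). Both genes were chosen after their values were seen.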
